A study of Mus musculus with 12 samples.

Results

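The constitutive proteasome is described here through its subunit genes, taken as the protein-coding genes of the deposited table named Psma, Psmb, Psmc or Psmd and a number, without the interferon-inducible catalytic genes Psmb8, Psmb9 and Psmb10. The rule gave 36 genes of the 54532 in the table. RNA-seq had been run on primary hepatocytes of 6-week-old mice, with 12 libraries in all and 3 per group. G3bp1-Flox mice (Flox) served as controls and gave the groups Flox_BSA and Flox_PA. Mice with a hepatocyte-specific G3bp1 knockout (HKO) gave HKO_BSA and HKO_PA. BSA and PA are abbreviations that the labels leave unexplained. Doses, durations and the Cre driver of the knockout were not stated. Nothing says that replicates are separate mice, so the p-values here reflect variation among these libraries alone, and that variation may be technical. G3BP1 is known as a core protein of stress granules.

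The proteasome is the protease that degrades proteins tagged with ubiquitin. Its 20S core is a barrel of alpha rings, which gate the entry, and beta rings, which hold the proteolytic sites. The 19S regulatory particle caps the core: its ATPases (Psmc genes) unfold substrates and push them in, and its non-ATPase subunits (most Psmd genes) bind ubiquitin chains, remove them and hold the particle together. Psmd5, Psmd9 and Psmd10 encode chaperones that help to assemble the base of the 19S particle and leave the finished complex. The transcription factor NRF1, encoded by Nfe2l1, is known to raise most of these genes together when proteasome activity is too low, through antioxidant response elements in their promoters.

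Such elements have been described in promoters of proteasome genes, and the promoters of some of the genes are shown. RefSeq promoters (build GRCm38.p6) matched 29 of the 36 genes, and 250 bases before the start site were searched on both strands. The letters TGACNNNGC, the core of an antioxidant response element, were found in 5 of the 29 promoters (17.2%), against 10.1% of 27025 promoters of the whole table and 12.3% of the 7179 promoters of genes tested here. The 5 were those of Psmb5, Psmb6, Psmc6, Psmd9 and Psmd12, and these genes did not pass between HKO and Flox under PA. In Psmb6 and Psmd9 every HKO_PA library lay above every Flox_PA library, and in Psmb5, Psmc6 and Psmd12 the groups overlapped. Psmb1, Psmb7 and Psmd3, which passed, had no matched promoter and were not searched. The letters CCAAT, a common promoter box, were found in 12 of the 29 (41.4%), against 34.5% of all promoters and 35.9% of those of tested genes. Another 4 sets of letters were searched and were no more frequent, or hardly so, than in promoters of tested genes: GGGCGG (58.6% against 60.4%), CACGTG (6.90% against 8.86%), GAANNTTC (3.45% against 4.92%) and GGGNNNTCC (20.7% against 19.4%). The 150 bases before the start site are given for 4 of the 5 alpha-ring genes that were higher in HKO than in Flox under PA, and for the catalytic genes Psmb5 and Psmb6, which hold a TGACNNNGC match. Capitals mark matches to TGACNNNGC or CCAAT on either strand.
Psma1, chr7:114276117-114276266, minus strand: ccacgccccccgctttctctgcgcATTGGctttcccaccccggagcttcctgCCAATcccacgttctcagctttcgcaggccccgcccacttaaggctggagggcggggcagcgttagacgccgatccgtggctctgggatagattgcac
Psma2, chr13:14613092-14613241, plus strand: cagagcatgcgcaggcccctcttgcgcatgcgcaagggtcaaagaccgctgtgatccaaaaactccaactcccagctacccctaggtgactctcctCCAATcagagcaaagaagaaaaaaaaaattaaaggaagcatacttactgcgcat
Psma3, chr12:70974473-70974622, plus strand: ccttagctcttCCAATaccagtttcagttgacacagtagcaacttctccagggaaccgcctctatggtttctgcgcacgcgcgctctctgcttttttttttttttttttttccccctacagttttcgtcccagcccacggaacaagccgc
Psma5, chr3:108256776-108256925, plus strand: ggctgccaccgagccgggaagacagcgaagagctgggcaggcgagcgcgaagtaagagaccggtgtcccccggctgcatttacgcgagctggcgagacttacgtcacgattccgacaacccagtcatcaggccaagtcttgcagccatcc
Psmb5, chr14:54617996-54618145, minus strand: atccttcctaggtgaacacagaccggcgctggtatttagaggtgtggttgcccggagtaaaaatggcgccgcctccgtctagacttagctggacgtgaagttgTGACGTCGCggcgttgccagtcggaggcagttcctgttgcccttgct
Psmb6, chr11:70525207-70525356, plus strand: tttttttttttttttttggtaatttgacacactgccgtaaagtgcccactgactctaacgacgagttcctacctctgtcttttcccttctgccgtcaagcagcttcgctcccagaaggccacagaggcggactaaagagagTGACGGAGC
A match is a description of the letters and not a binding site that these data show. The TGACNNNGC match lay 47 to 39 bases before the start in Psmb5 and 9 to 1 bases before it in Psmb6. The printed promoters of Psma1, Psma2 and Psma3 held CCAAT, and that of Psma5 held neither set of letters. Psma4 is not printed because its window runs into the annotated transcript, and its 250 bases held neither set of letters either. The last printed bases of Psma1, Psma2, Psma3 and Psmb5 also lie inside the annotated gene. For Psmb5 the gene reaches to base 54618022, so positions count from the RefSeq start and not from the annotated end.

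All values are FPKM (fragments scaled by gene length and by library total), as deposited. The reads behind them, computed from the FPKM and the gene length, came to between 15.02 and 18.42 M per library, and the 36 genes took 0.784% to 0.991% of them. Tests were made with limma on log2(FPKM + 1) over 9743 genes, those whose mean reached 1 FPKM, and a gene is said to have passed, risen or fallen where its Benjamini-Hochberg adjusted p, taken over all of them, was under 0.05. Fold changes are log2 differences on that scale with their standard error (SE). G3bp1 ranged from 37.7 to 45.7 FPKM in the Flox libraries and from 7.03 to 8.50 in the HKO libraries. The 8 hepatocyte markers were at 1 FPKM or more in every group, with a summed level of 7318 to 8621 FPKM in Flox and 10230 to 20830 in HKO libraries. Alb was the largest part of this sum. Of the 8, 3 rose in HKO under BSA and 5 under PA, 0 fell, and Hnf4a had a log2 change of -0.39 under PA without passing. The 14 macrophage markers had a summed level of 1630 to 2062 FPKM in the Flox groups and 83.0 to 152 in the HKO groups, where 10 of them reached 1 FPKM and Cd163 was listed at 0 in 4 of the 6 libraries. The 4 neutrophil markers summed to 16.9 to 25.4 FPKM in Flox and 0.141 to 0.738 in HKO libraries, with S100a9 and Retnlg at 0 in every HKO library. The 7 endothelial markers summed to 9.27 to 14.4 FPKM in Flox and 6.29 to 9.11 in HKO libraries. The 6 lymphocyte markers summed to 0.32 to 1.09 FPKM in Flox and to at most 0.06 in HKO libraries, and all 6 were at 0 in HKO_PA. The 4 cholangiocyte markers went the other way, with 4.17 to 4.83 FPKM in Flox and 7.85 to 9.20 in HKO libraries. Sox9, the only 1 of them tested, rose in HKO under BSA (log2 0.73) and PA (log2 0.84). Because these are bulk samples, fewer cells of a type and less RNA per cell cannot be told apart. Libraries of a group were not alike in these genes. HKO_PA_1 had the highest value of its group in 25 of the 34 tested members (in 45.2% of all tested genes), and HKO_BSA_1 the lowest of its group in 19 (37% of all). Flox_BSA_2 was the lowest of its group in 27 members (37.2% of all).

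Of the 36 genes, 34 were tested and 19 of these lay in the top 10% of the 9743 genes by mean FPKM. The median of the tested members' means was 71.3 FPKM, against 6.93 over all tested genes. Psmb5, the chymotrypsin-like catalytic subunit, was the highest at 560 FPKM over the 12 libraries, followed by the 19S subunit gene Psmd8 at 553 FPKM and the beta-ring gene Psmb4 at 324 FPKM. The ranges of Psmb5 (396 to 735 FPKM) and Psmd8 (428 to 724 FPKM) overlapped almost entirely. The other catalytic genes were lower, Psmb6 (caspase-like) at 175 FPKM and Psmb7 (trypsin-like) at 72.5 FPKM. The lowest tested members were the assembly chaperone gene Psmd9 (6.74 FPKM), the scaffold gene Psmd1 (7.16 FPKM) and the ATPase gene Psmc6 (13.2 FPKM). FPKM depends on the gene length that the authors used, which counts the bases of all annotated exons and ran from 899 bases for Psmb5 to 7265 for Psmd1, so the order of genes is that of this table and not of protein subunits.

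The remaining pair of genes, known from other tissues, was left out of the tests by the filter. Psma8, an alpha subunit of the testis, measured between 0.266 and 0.665 FPKM, from 7 to 17 reads per library. Its sequence resembles that of Psma7, with which reads could be shared. Psmb11, the beta subunit of thymic epithelium, was listed at 0 in 7 of the 12 libraries and reached 0.0545 FPKM, from 5 reads, in Flox_BSA_1.

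**Figure D1:**
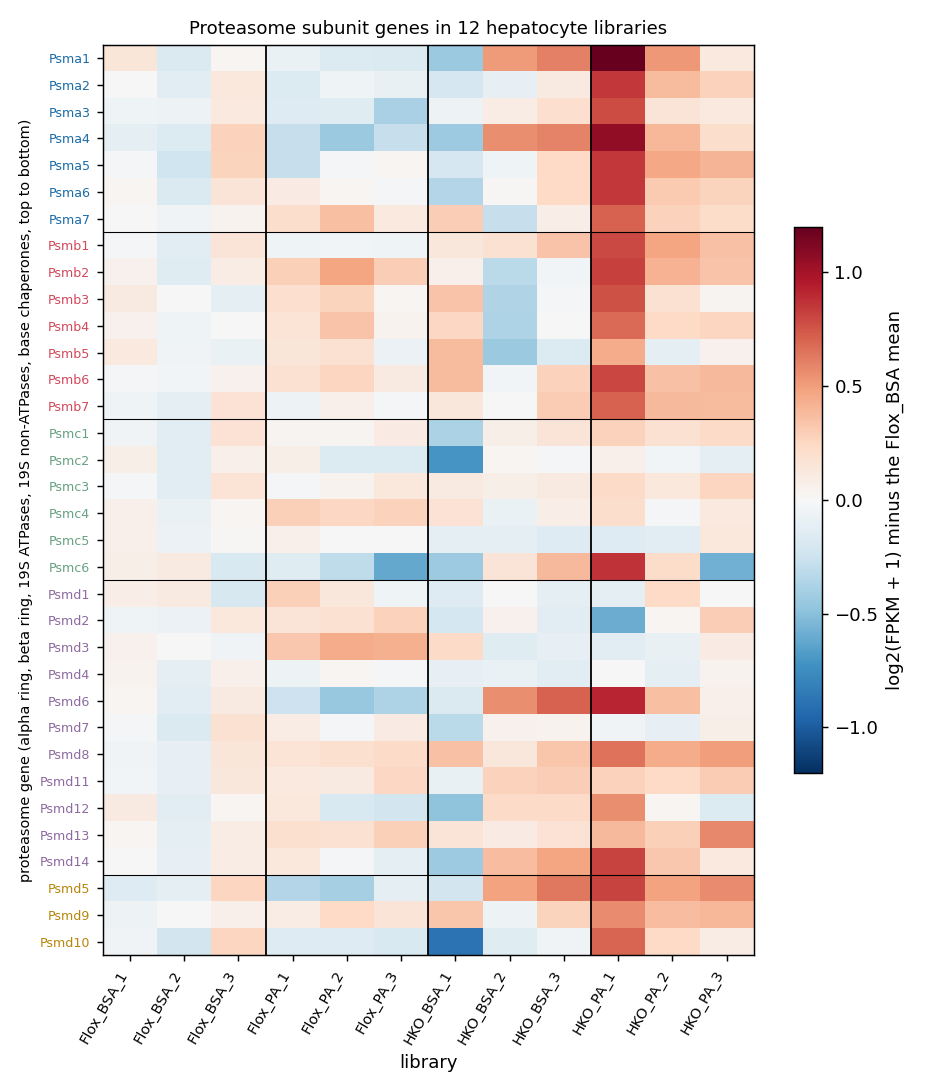
Each row is 1 of the 34 tested proteasome genes and each column 1 library. Colour gives log2(FPKM + 1) minus that gene's mean in Flox_BSA, with red higher and blue lower. HKO_PA_1 was the reddest column, with a median of 0.69 over the 34 genes, and the medians of the 3 Flox_BSA columns lay between -0.10 and 0.09.

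The genotypes were compared under PA. Among the subunit genes 9 of 34 rose in HKO (26.5%) where 16.9% of all tested genes rose, and 1 of 34 fell (2.94%) where 18.8% of all tested genes fell. The alpha ring held 5 of the 9, Psma1 to Psma5, and the beta ring Psmb1 and Psmb7. The other 2 were the lid subunit gene Psmd6 and the assembly chaperone gene Psmd5, while the lid gene Psmd3 fell. The median log2 change was 0.22 over the 34 genes and 0.00 over all tested genes. With quantile normalization the members' median was 0.03, beside 0.05 over all genes, with 9 higher and 2 lower.

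In the alpha ring every tested gene had a positive change, with a median of 0.60 and a range of 0.17 to 0.89. Psma2 measured 40.3, 43.6 and 42.4 FPKM in Flox_PA and 81.8, 59.0 and 55.0 in HKO_PA (log2 0.60, SE 0.15, adjusted p = 0.0094 by limma). Psma5 measured 93.4, 111 and 115 FPKM in Flox_PA and 204, 157 and 151 in HKO_PA (log2 0.67, SE 0.17, adjusted p = 0.0102 by limma). Psma2 lies at chr13:14613240-14674236 and Psma5 at chr3:108256926-108279974. For both genes the HKO_PA libraries lay above every Flox_PA library, with HKO_PA_1 the highest. Psma4 measured 49.6, 44.1 and 49.5 FPKM in Flox_PA and 127, 79.8 and 69.6 in HKO_PA (log2 0.89, SE 0.27, adjusted p = 0.02 by limma). Psma3 measured 41.5, 41.6 and 34.9 FPKM in Flox_PA and 80.0, 51.5 and 50.1 in HKO_PA (log2 0.58, SE 0.17, adjusted p = 0.0179 by limma). Psma1 measured 24.0, 22.5 and 22.4 FPKM in Flox_PA and 59.3, 36.8 and 27.6 in HKO_PA (log2 0.75, SE 0.27, adjusted p = 0.0478 by limma). In these 3 genes too the groups did not overlap, but HKO_PA_1 lay far above the other HKO_PA libraries. By limma, the calls of Psma1 (adjusted p = 0.215), Psma3 (adjusted p = 0.0566) and Psma4 (adjusted p = 0.0935) were lost without HKO_PA_1. Psma3 was also lost without Flox_PA_3 (adjusted p = 0.08 by limma), Psma4 without Flox_PA_2 or Flox_PA_3, and Psma1 without any 1 of Flox_PA_1, Flox_PA_2, Flox_PA_3 and HKO_PA_2 and with most other settings. Psma5 was lost when a trend with gene length was removed (adjusted p = 0.0749 by limma). The other alpha genes did not pass, Psma6 with log2 0.44 and Psma7 with log2 0.17.

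In the beta ring all 7 changes were positive as well, with a median of 0.21. Psmb1, a structural subunit, measured 58.6, 59.5 and 58.7 FPKM in Flox_PA and 106, 85.0 and 77.5 in HKO_PA (log2 0.58, SE 0.14, adjusted p = 0.00575 by limma). Psmb7, which holds the trypsin-like site, measured 61.1, 66.7 and 63.4 FPKM in Flox_PA and 105, 84.2 and 83.4 in HKO_PA (log2 0.50, SE 0.14, adjusted p = 0.0135 by limma). Both groups were well apart in these genes, and the 3 Flox_PA values of Psmb1 were nearly equal. Psmb1 lies at chr17:15475021-15499751 and Psmb7 at chr2:38588036-38644087. Psmb7 shares 11.8% of its exon bases with Nek6 on the opposite strand (17.2 FPKM on average), and no source says whether reads were counted by strand. The other catalytic genes did not pass: Psmb6 changed from 167 ± 8.77 to 213 ± 39.5 FPKM (SD, n = 3; log2 0.33) and Psmb5 from 574 ± 53.3 to 598 ± 122 FPKM (SD, n = 3; log2 0.04). Psmb5 overlapped between the groups, at 597, 612 and 513 FPKM in Flox_PA against 735, 502 and 558 in HKO_PA.

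The 19S particle moved less uniformly. Among its 6 ATPase genes 0 passed by limma in the main model and 0 had an unadjusted p under 0.05, with changes from -0.16 (Psmc4) to 0.53 (Psmc6). Psmc4 was lower in every HKO_PA library than in any Flox_PA library. It was called with limma-voom, quantile normalization, the length trend removed and array weights. Psmc5 was called with the length trend removed, and Psmc6 with array weights or without HKO_PA_3. Of the 11 non-ATPase genes 1 rose and 1 fell, both of them parts of the lid. Psmd6 measured 20.8, 17.8 and 19 FPKM in Flox_PA and 47.6, 32.2 and 26.1 in HKO_PA (log2 0.80, SE 0.23, adjusted p = 0.0163 by limma). Psmd3 measured 56.1, 61.0 and 60.1 FPKM in Flox_PA and 40.7, 41.9 and 47.8 in HKO_PA (log2 -0.44, SE 0.13, adjusted p = 0.0186 by limma). The HKO_PA libraries were all above Flox_PA for Psmd6 and all below for Psmd3. By limma, Psmd6 lost its call without Flox_PA_2 (adjusted p = 0.0558), without HKO_PA_1 (adjusted p = 0.0735) and with no filter (adjusted p = 0.0548), and Psmd3 without Flox_PA_2, Flox_PA_3 or HKO_PA_2, with adjusted p-values of 0.055 to 0.0686. Psmd14, the deubiquitinating subunit, did not pass (log2 0.42), nor did the ubiquitin receptor gene Psmd4 (log2 0.00) or the large scaffold gene Psmd2 (log2 -0.30). Psmd2 was spread widely in HKO_PA, at 48.8, 75.5 and 91.4 FPKM.

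The assembly chaperone gene Psmd5 (chr2:34849734-34874968) had the highest change of all members. It measured 17.9, 17.4 and 21.4 FPKM in Flox_PA and 41.4, 32.9 and 34.8 in HKO_PA (log2 0.91, SE 0.20, adjusted p = 0.00402 by limma). The HKO_PA libraries all lay above the Flox_PA libraries. Psmd10 (gankyrin) measured 39.3, 39.4 and 38.4 FPKM in Flox_PA and 72.0, 51.9 and 46.8 in HKO_PA, without overlap, but did not pass (log2 0.51), and Psmd9 did not pass either (log2 0.29).

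**Figure D2:**
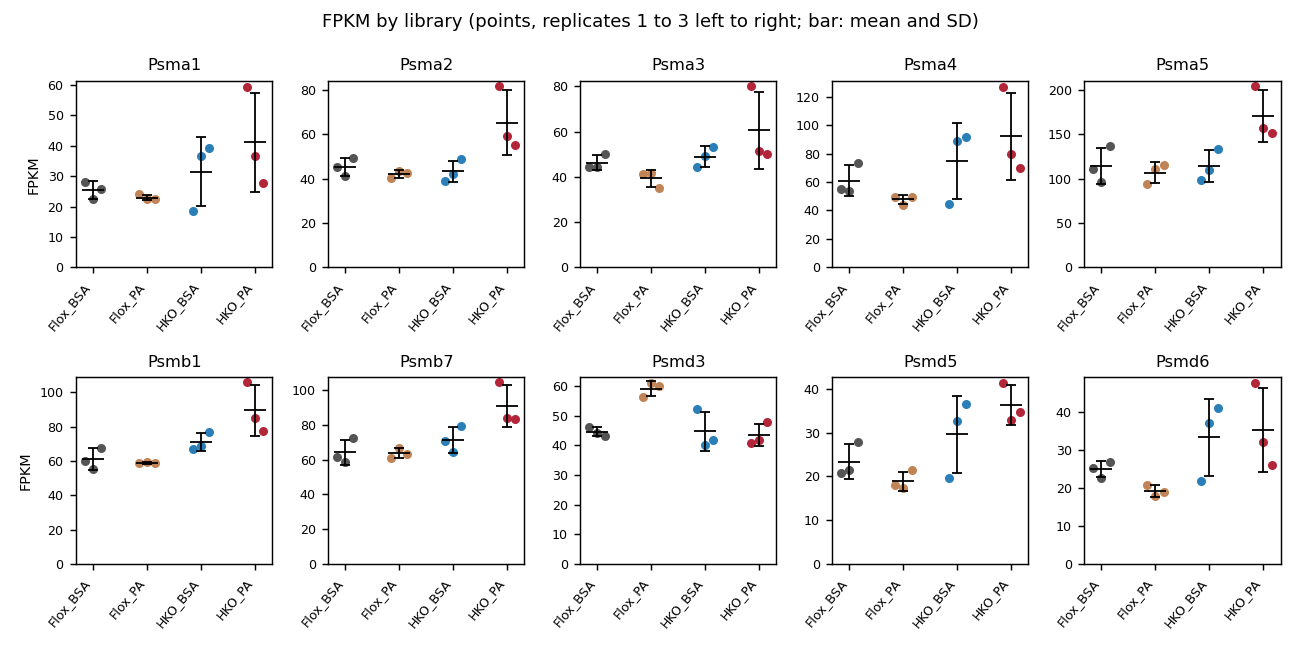
FPKM of the 10 proteasome genes that passed between HKO_PA and Flox_PA, by group. Points are libraries, replicates 1 to 3 from left to right, and bars are the mean and SD with n = 3. In 9 panels the 3 HKO_PA points lie above the 3 Flox_PA points, and in the Psmd3 panel they lie below.

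Counted by overlap, 16 of the 34 genes had all 3 HKO_PA libraries above all 3 Flox_PA libraries (47.1%), against 26.0% of all tested genes, and 2 had them all below (5.88%), against 26.0%. The calls of Psma2, Psma5, Psmb1, Psmb7 and Psmd5 were kept with each of the 6 libraries of these groups left out in turn. The number of calls was 6 without HKO_PA_1, Flox_PA_2 or Flox_PA_3 and 14 without HKO_PA_3. With both HKO libraries numbered 1 left out the same 10 genes passed. Removal of the trend with gene length gave 9 higher and 3 lower, and 8 of the 10 genes were among them. The markers of other cell types differed between these groups as well. Their summed level was 1630 to 1858 FPKM in Flox_PA and 122 to 152 in HKO_PA for macrophages, and 19.3 to 25.4 against 0.396 to 0.738 FPKM for neutrophils. Their part in the result was not tested.

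The same comparison in BSA gave no call among the subunit genes. By limma 0 of 34 passed where 20.5% of all tested genes did, 0 had an unadjusted p under 0.05 where 32.3% of all tested genes had one, and limma-voom on computed reads called 0 too. The median change was 0.01 over the members and 0.04 over all tested genes. The groups did not overlap in 1 gene that was higher, Psmd13 (2.94%, against 19.7% of all genes), and 1 that was lower, Psmc5 (2.94%, against 18.0%). Psmd8, with the smallest p, measured 447, 428 and 507 FPKM in Flox_BSA and 586, 506 and 579 in HKO_BSA (log2 0.27, SE 0.13, adjusted p = 0.162 by limma). Its groups met at their edges, since HKO_BSA_2 lay just under Flox_BSA_3. Psmd10 (log2 -0.36) and Psmb1 (log2 0.22) followed, with adjusted p-values of 0.285 and 0.303 by limma.

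Several genes were spread widely in HKO_BSA. Psma4 measured 44.3, 89.0 and 91.3 FPKM in HKO_BSA, beside 55.4, 53.7 and 73.3 in Flox_BSA, and Psmd10 measured 23.3, 39.6 and 42.6 FPKM in HKO_BSA, beside 42.7, 37.5 and 52.7. Psmd5 had 19.7, 32.7 and 36.5 FPKM in HKO_BSA and 20.7, 21.5 and 28.0 in Flox_BSA. In each of these genes HKO_BSA_1 was the lowest of its group. Psmb5 ran the other way and was highest in HKO_BSA_1, at 702 FPKM against 396 and 481 in the other HKO_BSA libraries, beside 586, 524 and 512 in Flox_BSA. Without HKO_BSA_1 the calls numbered 2, Psmd5 and Psmd6, both higher, and without both HKO libraries numbered 1 they numbered 6, all higher.

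**Figure D3:**
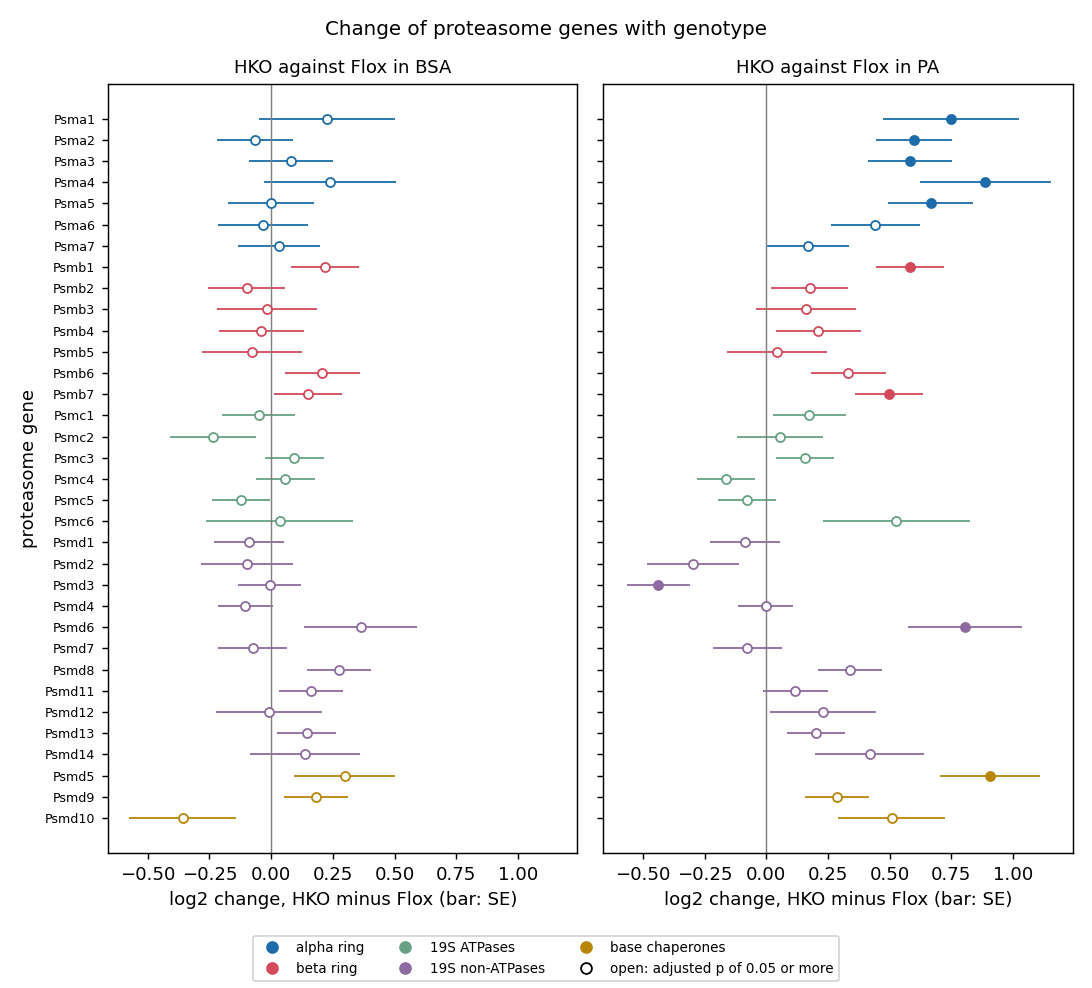
Log2 change between HKO and Flox of the 34 tested genes, in BSA on the left and in PA on the right, with bars of 1 SE. Filled points passed at an adjusted p under 0.05 and colours give the place in the complex. None is filled in BSA, and 10 are filled in PA, 5 of them in the alpha ring.

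PA was compared with BSA within each genotype. In HKO 33 of the 34 genes had a positive change, with a median of 0.27 beside 0.00 over all tested genes, but Psmb2 alone passed by limma: 1 of 34 rose (2.94%, against 1.68% of all genes) and 0 fell (against 1.25%). Psmb2 (chr4:126677630-126709714), a structural beta subunit, measured 116, 88.6 and 109 FPKM in HKO_BSA and 198, 150 and 141 in HKO_PA (log2 0.63, SE 0.16, adjusted p = 0.0472 by limma). The groups did not overlap, but the call was lost without HKO_BSA_2, HKO_BSA_3, HKO_PA_1 or HKO_PA_2, with adjusted p-values of up to 0.34 over all alternatives. The median change was 0.14 without both HKO libraries numbered 1. At an unadjusted p under 0.05, 10 of the 34 genes were higher and 0 lower, while 20.8% of all tested genes had such a p in either direction. All 3 HKO_PA libraries lay above all 3 HKO_BSA libraries in 12 genes (35.3%, against 9.10% of all genes) and below in 0 (against 9.10%).

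The changes with PA in HKO were higher in the 20S core than in the 19S particle. The 14 ring genes had changes of 0.21 to 0.63 with a median of 0.36, and the 17 genes of the 19S particle had changes of -0.03 to 0.28 with a median of 0.11. Psma2 measured 39.0, 42.0 and 48.7 FPKM in HKO_BSA and 81.8, 59.0 and 55.0 in HKO_PA (log2 0.57, adjusted p = 0.0672 by limma). Psma5 measured 98.5, 110 and 134 FPKM in HKO_BSA (log2 0.58, adjusted p = 0.094 by limma). Neither gene overlapped between these groups, and neither passed. The catalytic genes Psmb5, Psmb6 and Psmb7 had log2 changes of 0.21, 0.31 and 0.34. This change fell with gene length (Spearman -0.426 over the 9743 genes, which are not independent replicates), and the tested members had a median length of 2814 bases against 3630 over all tested genes. With the length trend removed the members' median in HKO was 0.26, and Psma2 passed beside Psmb2.

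**Figure D4:**
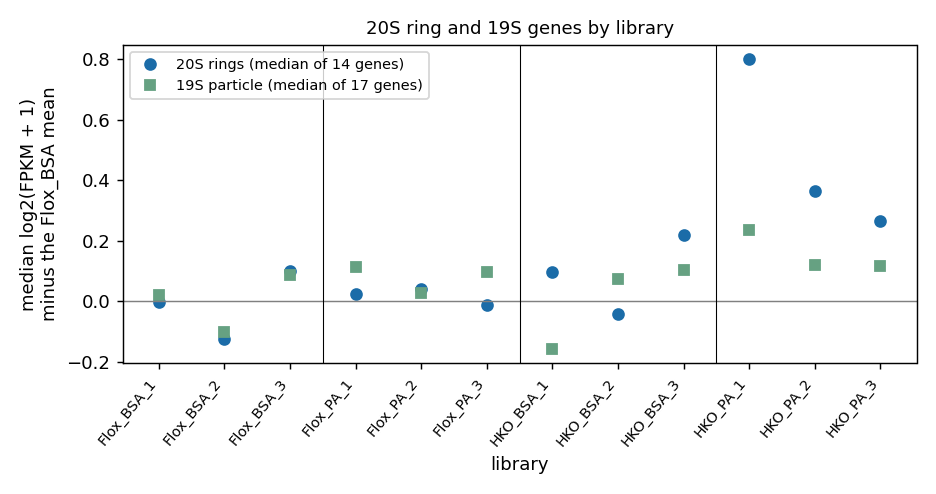
Median of log2(FPKM + 1), relative to the Flox_BSA mean of each gene, for the 14 genes of the 20S rings (circles) and the 17 genes of the 19S particle (squares), in each of the 12 libraries. The circles of the HKO_PA libraries lie at 0.80, 0.36 and 0.27, above their squares at 0.23, 0.12 and 0.12.

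The distance between core and cap was set out by library. The median of the ring genes minus that of the 19S genes was 0.57, 0.24 and 0.15 in HKO_PA, and -0.09, 0.01 and -0.11 in Flox_PA. In HKO_BSA it was 0.26, -0.11 and 0.12, which overlaps HKO_PA, and in Flox_BSA -0.02, -0.02 and 0.01. HKO_PA thus had the 3 ring medians that were highest of the 12 libraries, and these differences are given as a description with no test. The summed FPKM of the 34 genes was 5016, 3913 and 4002 in HKO_PA and 3628, 3746 and 3521 in Flox_PA.

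In Flox the subunit genes showed no call with PA. By limma 0 of 34 passed where 2.21% of all tested genes did, 3 had an unadjusted p under 0.05 where 15.9% of all tested genes had one, and limma-voom on computed reads called 0. The median was 0.04 over the members and 0.02 over all tested genes. The alpha ring had a median of -0.10 and the beta ring one of 0.16. Psmd3 measured 46.3, 44.3 and 43.2 FPKM in Flox_BSA and 56.1, 61.0 and 60.1 in Flox_PA (log2 0.40, SE 0.13, adjusted p = 0.155 by limma). Psmb2 measured 116, 101 and 118 FPKM in Flox_BSA and 136, 155 and 137 in Flox_PA (log2 0.35, adjusted p = 0.295 by limma), and the ATPase gene Psmc4 measured 92.9, 84.3 and 90.8 against 109, 106 and 108 (log2 0.27, adjusted p = 0.295 by limma). In each of these genes the Flox_PA libraries lay above those of Flox_BSA. Such separation was found for 9 of 34 genes that were higher (26.5%, against 22.1% of all genes) and 3 that were lower (8.82%, against 16.9%), the latter Psma3, Psma4 and Psmd6. The result depended on the libraries in the fit: fitted on the 6 Flox libraries alone, 4 members passed, Psmb2, Psmc4 and Psmd3 higher and Psmd6 lower.

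The difference between the PA effects of the genotypes was tested as an interaction, and no member passed. By limma the count was 0 of 34, beside 0.267% of all tested genes, with 4 members at an unadjusted p under 0.05, where 17.4% of all tested genes had such a p, and 0 calls by limma-voom. Of the 34 genes 29 had a positive value, that is, a higher change in HKO, with a median of 0.23 beside 0.02 over all genes. Psma2 (log2 0.67, SE 0.22, adjusted p = 0.181 by limma), Psmd10 (log2 0.87, adjusted p = 0.204) and Psma5 (log2 0.67, adjusted p = 0.212) had the smallest p-values. The median was 0.07 without both HKO libraries numbered 1. The comparisons above share their groups, so their values stand side by side and are not independent of each other.

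Other genes of the proteasome and ubiquitin pathway were taken from lists of known genes. The lists hold 2 to 6 genes each, and their counts under PA stand beside the 16.9% of all tested genes that rose and the 18.8% that fell in HKO. Of the 3 inducible catalytic genes, which replace Psmb5, Psmb6 and Psmb7 in immune cells and after interferon, 2 fell in HKO under both treatments. Psmb9 measured 5.87, 6.50 and 6.10 FPKM in Flox_PA and 1.75, 1.19 and 1.34 in HKO_PA (log2 -1.57, SE 0.15, adjusted p = 2.47e-06 by limma). Psmb8 measured 20.7, 22.8 and 19.3 FPKM in Flox_PA and 10.6, 6.77 and 8.42 in HKO_PA (log2 -1.21, SE 0.22, adjusted p = 0.00117 by limma). The HKO libraries lay below every Flox library in both genes, in BSA too (log2 -1.89 and -1.73). Psmb10 did not pass in PA (log2 -0.23) or in BSA (log2 -0.49). The summed levels of the macrophage, neutrophil, endothelial and lymphocyte markers given above were lower in HKO as well, while that of the cholangiocyte markers was higher. The endothelial markers were mixed: of the 3 tested, 3 fell in BSA and 1 in PA. Clec4g, which was under the filter, was higher in HKO in both. The part of these cell types in the result was not tested.

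Among the 5 chaperones of 20S assembly 3 rose in HKO under PA, 0 fell and 2 did not pass. Psmg2 measured 24.7, 25.2 and 31.3 FPKM in Flox_PA and 52.2, 43.9 and 36.6 in HKO_PA (log2 0.68, adjusted p = 0.0102 by limma), Pomp, which matures the beta subunits, changed by log2 0.49 and Psmg1 by log2 0.45. By limma, Psmg2 and Psmg1 were lost with the length trend removed (adjusted p = 0.147 and 0.311), and Pomp and Psmg1 without HKO_PA_1 (adjusted p = 0.127 and 0.0635), among other settings. Of the 2 other 19S subunit genes Sem1 rose (log2 0.54) and the ubiquitin receptor gene Adrm1 did not pass. Among 5 associated enzymes Txnl1, a redox protein bound to the 19S particle, rose (log2 0.57), and the others, including the deubiquitinases Usp14 and Uchl5, did not pass.

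In the NRF1 pathway list 1 of 6 genes rose and 1 fell in HKO under PA, which is near the share of all tested genes in each direction. Nfe2l1, which encodes NRF1, measured 38.2, 42.1 and 43.2 FPKM in Flox_PA and 17.2, 28.7 and 35.9 in HKO_PA (log2 -0.64, SE 0.20, adjusted p = 0.0261 by limma). HKO_PA_1 was the lowest, and the call was lost without it (adjusted p = 0.081 by limma), without Flox_PA_2 or without Flox_PA_3. Ufd1, a cofactor of the p97 ATPase, rose (log2 0.48), while Vcp, the p97 gene itself, did not pass. Of 5 shuttle factor genes 1 fell, Ubqln2 (log2 -0.39), and of 5 tested ubiquitin genes 1 fell, the ubiquitin-activating enzyme gene Uba1 (log2 -0.61), which measured 121, 124 and 154 FPKM in Flox_PA and 60.4, 87.7 and 122 in HKO_PA. The Uba1 groups overlapped. By limma, 0 of 5 activator and inhibitor genes passed in PA, with 1 at an unadjusted p under 0.05, and 0 of the 2 arsenite and heat inducible partners, Zfand2a and Zfand5, with 0 at such a p.

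In the remaining comparisons few of these genes passed. In BSA the 11S activator gene Psme1 fell in HKO, from 42.9 ± 0.973 to 30.6 ± 4.08 FPKM (SD, n = 3; log2 -0.48, adjusted p = 0.0351 by limma), as did the 26S-associated gene Ecpas (log2 -0.55, adjusted p = 0.0465 by limma). With PA in Flox Ubqln2 rose from 8.39 ± 0.384 to 13.4 ± 0.861 FPKM (SD, n = 3; log2 0.61, adjusted p = 0.0128 by limma). With PA in HKO 0 of the 38 tested genes of these lists passed by limma, 9 had an unadjusted p under 0.05, and limma-voom called 0 of the 13 of them it was reported for. In the interaction the counts were 0, 2 and 0. Of the calls on these other genes, those of Psmb8 and Psmb9 were kept under each alternative, and each of the others was lost under at least 1, most often with 1 library left out.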

How the data were processed

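The members, the gene lists and the comparisons were chosen with earlier results of these data known. The authors deposited FPKM values for 54532 genes, 1 column for each of 12 libraries, with the gene length used as divisor. The submitters' processing notes name the builds GRCm38 and mm10. An aligner, a read counter and an annotation release were not named in any source used. Of the 36 members, 35 have the same coordinates and exon length in GENCODE M21. Per the labels' protocols, libraries were made with an NEBNext Ultra RNA kit. Reads were computed from FPKM and gene length: below 1000 reads, 100% of values fell within 0.01 of a whole number in each library.

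One limma model (limma 3.58.1, R 4.3.3, variance trend) on log2(FPKM + 1) gave 4 group means and 5 comparisons. It was also run on simulated data with independent genes and 1 spread per gene for all groups. The simulation thus did not cover the wider spread of the HKO groups. Named members are, per comparison, up to 10 per direction among those past the threshold or the 3 with the smallest p, with the catalytic genes, genes under 1 FPKM and the highest and lowest member. Of each other list up to 4 genes that passed are named. Any further gene named was chosen after its values were seen. Alternatives were another pseudocount (0.1), other filters (none, 5 FPKM), quantile and trimmed-mean scaling, removal of a length trend, limma-voom on computed reads, only the groups compared, blocks, array weights and left-out libraries. Symbols were read from the table, and promoters from RefSeq. Protein sequences were not used here. The added pseudocount lowers the changes of weakly expressed genes, and the filter decides which genes are tested.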

Additional observations from a re-analysis of the deposited data

How the results depend on the processing

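Counts are of the 34 tested subunit genes that passed. With PA in Flox the count of 0 became 4 with only the groups compared, 3 without both HKO libraries numbered 1 and 11 with array weights, and it was 0 with each library left out. With PA in HKO the count of 1 became 0 without a filter, with only the groups compared and with either replicate block, and 2 with the length trend removed, with limma-voom and with array weights; with 1 library left out it ranged from 0 to 3. Between genotypes in BSA the count of 0 became 6 without both HKO libraries numbered 1 and 16 with array weights, and ranged from 0 to 2 with 1 library left out. In PA the count of 10 became 16 with array weights and ranged from 6 to 14 with 1 library left out, and the remaining alternatives gave 7 to 12. The interaction count of 0 became 1 with array weights. Psma5 turned from log2 0.00 to 0.25 in BSA with array weights (adjusted p = 0.0483 by limma). The medians of the members moved with PA in HKO to 0.10 with array weights, and in the interaction to 0.07 without both HKO libraries numbered 1 and 0.05 with array weights. The cause of these shifts was not tested. Limma-voom, which divides by the sum of computed reads, moved the median of all genes between genotypes to -0.13 in BSA and -0.16 in PA, and that of the members to -0.16 and 0.07.

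No source says whether libraries of the same number are pairs, and 3 libraries per group are too few for correlations to decide it. Deviations of same-numbered libraries of 1 genotype correlated between -0.484 and 0.349. For numbers 1 to 3 the values were 0.203, -0.015 and 0.316 in Flox, and -0.243, 0.349 and -0.484 in HKO. Among the libraries of the other treatment of their genotype, 6 of 12 libraries correlated best with their own number. With the replicate block on numbers across groups 10 members passed between genotypes in PA, 9 of them the same, and the count for PA in HKO was 0. Reads per library differed widely among members, from 441 to 1152 for Psmc6 to 24397 to 30534 for Psmd8. Precision did not follow the reads alone. The SE between genotypes in PA was 0.30 for Psmc6, but 0.13 for Psmd9 (621 to 881 reads) and 0.27 for Psma4 (1629 to 4039 reads).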

Other observations

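Most subunit genes of the same ring deviated together, though not all pairs did. Over the 12 libraries, after the group means were taken off, the median pairwise Pearson correlation was 0.84 among the 7 beta-ring genes (21 pairs) and 0.77 among the 7 alpha-ring genes (21 pairs). The lowest pair was Psmb5 and Psmb1 (0.237) in the beta ring and Psma7 and Psma4 (-0.035) in the alpha ring. The median was 0.01 among the 6 ATPase genes (15 pairs), 0.13 among the 11 non-ATPase genes (55 pairs) and 0.25 among all 34 members (561 pairs). The highest value of any pair was 0.984, between Psmb4 and Psma7, which belong to different rings. The lowest was -0.904, between the lid genes Psmd3 and Psmd14. The points share their libraries, the same median over all tested genes was not computed, and the values are a description.

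Spread within groups was taken as each gene's SD of log2(FPKM + 1), whose median was 0.123 over the members and 0.104 over all tested genes in Flox_BSA, and 0.0754 and 0.114 in Flox_PA. In HKO_BSA it was 0.216 and 0.21, and in HKO_PA 0.242 and 0.223. Among 6 pseudogenes that the table describes as proteasome copies the highest mean was 0.0627 FPKM, for Psmb6-ps2.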
